A study of Mus musculus with 2 samples.

Results

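The genes described here are 8 core members of the Hedgehog pathway, the ligand Shh, the receptors and regulators Ptch1, Smo, Hhip and Sufu, and the transcription factors Gli1, Gli2 and Gli3. Every non-control probe on the arrays that the array files name for 1 of these genes was taken, whatever its value. This gave 13 of 55676 probes, carrying 8 of the 34820 gene names on the arrays. All 8 symbols were found in a RefSeq gene table as spelled.

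The study asked which transcripts change when SOX11, a SOXC transcription factor that the labels describe as undetectable in the epidermis at this age, is switched on again after birth. Epidermis of SOX11-induced pups carrying K14-rtTA and TRE-Sox11-FLAG was compared with epidermis of control littermates carrying K14-rtTA alone. All pups were FVB/N mice at postnatal day 4.5, and all of them, controls included, carried K14-rtTA and had received doxycycline (Dox) for 12 h. The transgene K14-rtTA makes a Dox-dependent activator under the keratin 14 promoter. That promoter is active in basal keratinocytes and in the outer layer of the hair follicle, so induction was aimed at such cells. The site of induction was not measured in these data. Per the methods, the epidermis was lifted from dorsal skin with dispase and the pups of a pair were matched for gender. There were 2 littermate pairs, each with 1 pup of either genotype and each measured on its own 2-colour microarray, a slide carrying short DNA probes. Control RNA was labelled with Cy3 and SOX11-induced RNA with Cy5 on both arrays, and a log2 ratio is positive where the SOX11-induced pup was brighter. Because the dyes were not exchanged between arrays, dye and genotype cannot be told apart at any probe.

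In the Hedgehog pathway, a secreted ligand binds the membrane receptor PTCH1, which otherwise holds the signal transducer SMO inactive. Once SMO is released, GLI2 and GLI3 are freed from the restraint of SUFU and turn on target genes, among them Gli1, Ptch1 and Hhip, whose transcripts are widely used as readouts of the pathway. In skin, Shh made by hair follicle epithelium drives the growth of the follicle and signals to the dermal papilla beneath it, and uncontrolled pathway activity leads to basal cell carcinoma.

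Each value below rests on a 60-base probe, and a gene with more than 1 probe was measured at different stretches of its transcript. Probes of one gene are numbered by brightness. The first 30 bases of the probes on which the results turn are shown so that the measured stretch can be recognised, in lower case, 5′ to 3′ as the array files list them, with positions on the mouse build mm9. Which exon or untranslated region these positions fall in was not analysed here.
Smo, first probe, chr6:29711225-29711284, plus strand: aatgtctagtcattttcatagtgccccaca
Smo, second probe, chr6:29710919-29710978, plus strand: taaaactgcaatgagcacacacagacacac
Gli1, first probe, chr10:126766967-126767026, minus strand: ggggctgtatttagtctatgtatgttccag
Gli1, second probe, chr10:126775021-126775080, minus strand: tctgcaggagaaggtggggaagctagggcc
Ptch1, first probe, chr13:63612879-63612938, minus strand: ttcatgtcaggtgtgagaggagggactcaa
Gli2, chr1:120731255-120731314, minus strand: aggcattgattcttggactttgaggaactc
Gli3, chr13:15821502-15821561, plus strand: tgttctcctctgacaagttacgcttgtata
Shh, chr5:28783983-28784042, minus strand: aatttattattgtgtgaactgtactcacag
The Smo probes lie close together and are alike in composition, with 41.7% and 45% G and C. By contrast, the Gli1 probes are further apart on the chromosome and differ, with 35% in the first and 50% in the second.

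Between 37.5% and 42.6% of the 59305 non-control spots per array were well above background, a mark that the scanner software gives to a spot whose signal clearly exceeds its surroundings. The array probes for Sox11 itself were not well above background in either genotype, so they gave no check of the labels. Both Xist probes were well above background in both channels of pair 1 alone, and the Y-linked Ddx3y and Eif2s3y in both channels of pair 2 alone, so the sex of a pair and any other difference between pairs cannot be told apart. As for other cell types, 5 of 6 dermal papilla markers, Sox2, Sox18, Corin, Rspo3 and Crabp1, were not above background in any channel, nor were 4 of 8 dermal fibroblast markers, Pdgfra, Lum, Twist2 and Prrx1. The other 4 fibroblast markers were above background in every channel. Of these, the collagens Col1a1, Col1a2 and Col3a1 had ratios from -0.17 to -0.03 in pair 1 and from 0.77 to 1.14 in pair 2, and Dcn had ratios of -0.97 and -0.62 (adjusted p = 0.026, limma). All 8 keratinocyte, all 5 melanocyte, all 4 immune and 3 of 5 Schwann cell markers were above background throughout, so RNA of several cell types was measured.

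No Hedgehog member was called changed by SOX11 induction. A call required an adjusted p under 0.05 (limma, Benjamini-Hochberg over all 55676 probes) and a mean above 1.5 or below -1.5 on the log2 scale, and 0 of the 13 member probes met this, against 0.453% of all probes. None passed the adjusted p threshold by itself, which 4.39% of all probes did, 2.99% higher and 1.41% lower in SOX11-induced epidermis. The lowest adjusted p among the members was 0.0603. At an unadjusted p under 0.05 from the same limma fit, 5 of the 13 probes passed (38.5%), compared with 21.1% of all probes. These 5 were both Smo probes, both Gli1 probes and the first Hhip probe. Among probes above background in a channel on both arrays, 3 of the 7 member probes passed (42.9%), compared with 31.2% of all such probes. The median of the members' mean log2 ratios was 0.08, and that of all probes was 0.01.

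Only some of the members could be measured in this tissue. For 5 of the 13 probes, both channels were above background on both arrays, namely both Smo probes and the first probe of Gli1, Ptch1 and Gli3. The first Sufu probe and the Gli2 probe were above background on both arrays in the SOX11 channel, and the second Sufu probe on 1 array. The Shh probe, both Hhip probes and the second probes of Ptch1 and Gli1 were not above background anywhere, and their ratios are of values near the background. In bulk epidermis, fewer cells of a type and less RNA per cell cannot be told apart, which holds for every difference given here.

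**Figure D1:**
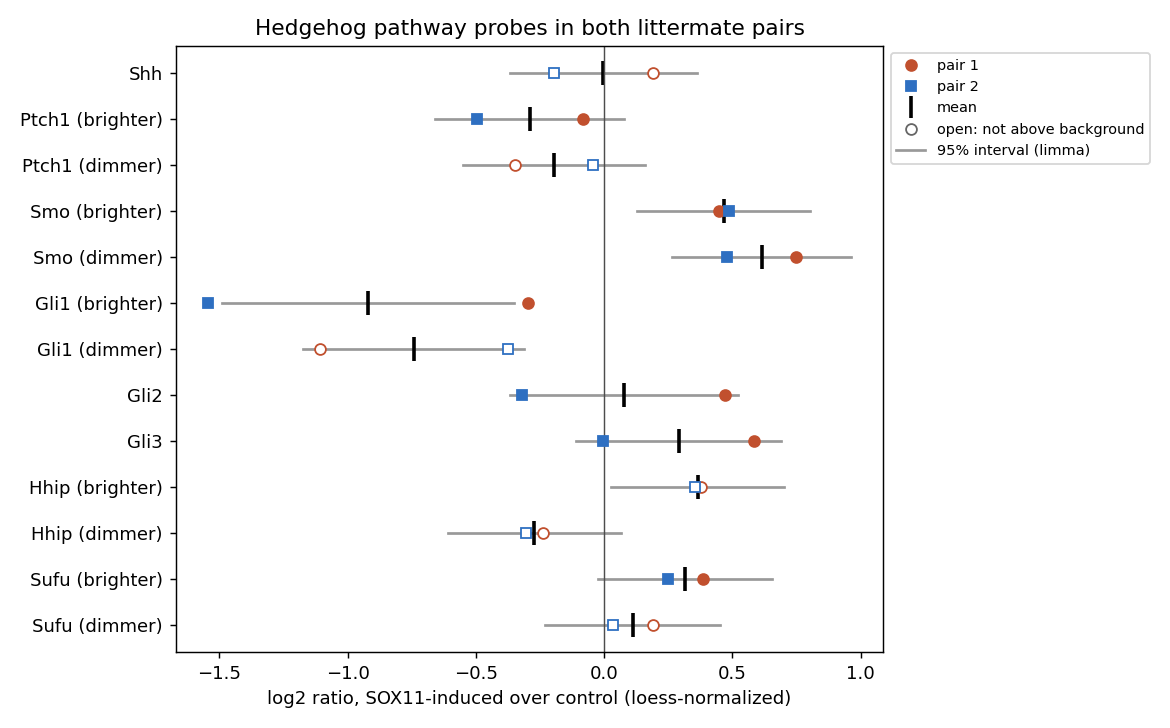
Log2 ratio of SOX11-induced over control epidermis (horizontal axis) for each of the 13 Hedgehog probes, in pair 1 (circles) and pair 2 (squares), with their mean (vertical bar) and the 95% interval of the limma fit (grey line). Open symbols are probes not above background in a channel on both arrays. Both Smo probes lie above 0 in both pairs and both Gli1 probes lie below 0. The first Gli1 probe lay above 0 in pair 1 when arrays were centred on the median in place of loess. That setting shifted probes above background upwards as a whole.

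Transcripts of Shh, the ligand, were not detected above background in either genotype. The log2 levels at the Shh probe were 4.94 in the control and 5.13 in the SOX11-induced pup of pair 1, and 5.41 and 5.21 in those of pair 2. The log2 ratios were therefore 0.19 in pair 1 and -0.20 in pair 2, of opposite sign, and the mean was 0.00 (95% interval -0.37 to 0.36, adjusted p = 0.995, limma). This probe was printed 10 times on each array. The SD among the spots kept was 0.12 over 9 spots in pair 1 and 0.40 over 10 spots in pair 2, and the spots of pair 2 ranged from -0.60 to 0.66.

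Ptch1, which encodes the receptor of the ligand and is itself induced by the pathway, was somewhat lower in the SOX11-induced pup of pair 2. Its first probe read log2 levels of 6.66 in the control and 6.58 in the SOX11-induced pup of pair 1, whereas in pair 2 these were 7.11 and 6.61. The ratios were -0.08 and -0.50 and their mean was -0.29 ± 0.29 (SD, n = 2 pairs, adjusted p = 0.348, limma). The interval of this mean, -0.66 to 0.08, includes 0. Under median centring the mean of this probe turned to 0.06, a setting that moved the median of probes above background from 0.04 to 0.51. The second Ptch1 probe was below background everywhere, with ratios of -0.35 and -0.04.

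Smo, the transducer that the receptor holds in check, read higher in the SOX11-induced pup of each pair. At the first probe the controls read 11.55 in pair 1 and 11.24 in pair 2, and the SOX11-induced pups 12.00 and 11.73. At the second probe the controls read 7.33 and 7.15, and the SOX11-induced pups 8.08 and 7.63. At each probe, both SOX11-induced pups were thus brighter than both controls. With 2 pups of each genotype such a separation is easily met, and its share over all probes was not counted. The ratios of the first probe were 0.45 and 0.48, a mean of 0.47 ± 0.027 (SD, n = 2 pairs), or 1.38-fold, with an interval of 0.13 to 0.80 and an adjusted p of 0.117 (limma). Those of the second probe were 0.75 and 0.48, a mean of 0.61 ± 0.19 or 1.53-fold, with an interval of 0.26 to 0.96 and an adjusted p of 0.0603 (limma). The probes measure the same transcript in the same RNA and are not separate replicates. The ratio was positive at both probes and in both pairs under all 7 ways of processing the arrays that were tried. These ways are not separate checks. The filter on dim probes kept the main ratios, and the authors' table was close to the setting of median spot brightness. The adjusted p (limma) of the first probe ranged from 0.000652 to 0.245 over these and that of the second from 0.000961 to 0.257. The processing thus decided whether Smo passed. Both lowest values came from median centring, which shifted probes above background upwards as a whole. Relative to that shift, the means there were 0.66 at the first probe and 0.60 at the second.

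**Figure D2:**
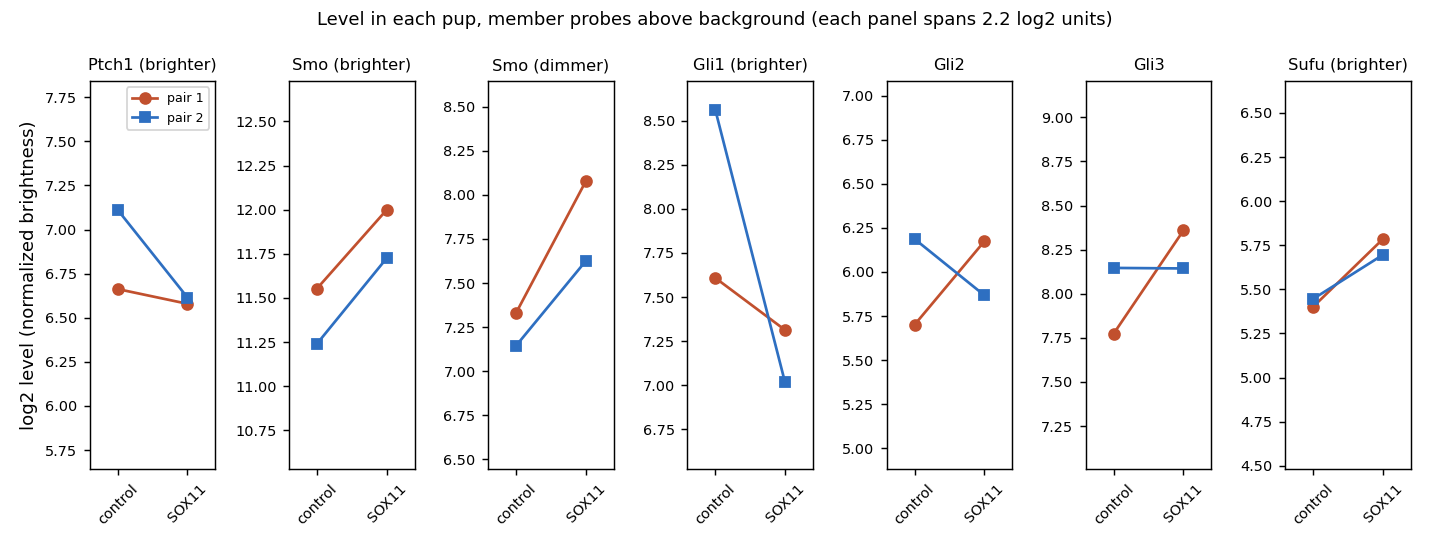
Log2 level (normalized brightness, vertical axes) of the 7 Hedgehog probes that were above background in a channel on both arrays, in the control and the SOX11-induced pup of pair 1 (circles) and pair 2 (squares), with littermates joined by a line and every panel spanning the same number of log2 units. Lines of Smo and Sufu run upwards in both pairs, those of Gli2 cross, and the steepest is the fall of Gli1 in pair 2 from 8.56 to 7.02.

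Among the GLI factors, Gli1, the factor that is both an activator and a target of the pathway, had negative ratios at both probes. The first probe read 7.61 in the control and 7.31 in the SOX11-induced pup of pair 1, and 8.56 and 7.02 in those of pair 2. The ratios were of the same sign but unlike in size, at -0.30 and -1.54. Their mean was -0.92 ± 0.88 (SD, n = 2 pairs), or 1.89-fold lower, with an interval of -1.49 to -0.35 and an adjusted p of 0.0771 (limma). Of the 21782 probes above background, 1.55% had pairs that differed at least as far as those of this probe. In pair 2 alone this was the only member probe past a log2 ratio of 1.5 in size, and in pair 1 alone there was none. The second Gli1 probe, below background in every channel, had its larger ratio in the other pair, -1.11 in pair 1 and -0.38 in pair 2 (mean -0.74, adjusted p = 0.0634, limma). Under median centring the first probe read 0.12 in pair 1 and -1.02 in pair 2. Relative to the shift of probes above background in that setting, its mean was -0.92.

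Gli2 and Gli3 carry the first transcriptional response to the ligand, and Gli3 also yields a repressor. Neither passed the test, and at both the pairs were unlike. Gli3 read 7.77 in the control and 8.36 in the SOX11-induced pup of pair 1, whereas the littermates of pair 2 were level at 8.15 and 8.14. Its ratios were 0.58 and 0.00, with a mean of 0.29 ± 0.42 (SD, n = 2 pairs, adjusted p = 0.385, limma). Gli2 read 5.70 and 6.17 in pair 1 and 6.19 and 5.87 in pair 2, with the control of pair 1 not well above background. Its ratios were of opposite sign, 0.47 and -0.32, and their mean was 0.08 ± 0.56 (adjusted p = 0.863, limma). The genotypes overlapped at both genes. Pairs that differed at least as far were found at 8.23% of probes above background for Gli3 and at 3.89% for Gli2.

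The inhibitors were close to the background. Sufu, whose product holds GLI proteins in the cytoplasm, was above background at its first probe in the SOX11-induced pups alone, at 5.78 and 5.69, while the controls read 5.40 and 5.44. The ratios were 0.38 and 0.25 (mean 0.32 ± 0.095, SD, n = 2 pairs, adjusted p = 0.267, limma). With each control set to the lowest signal that counted as above background on its array where its own was lower, the first probe was at least 1.14-fold brighter in SOX11-induced epidermis, a bound that is open to dye bias on a difference that did not pass the test. The second Sufu probe had ratios of 0.19 and 0.03 (adjusted p = 0.722, limma), and the same bound gave no increase there. The probes of Hhip, a membrane decoy that binds the ligand, were not above background in any pup and differed in sign, with a mean of 0.36 at the first (adjusted p = 0.203, limma) and of -0.27 at the second (adjusted p = 0.334). No direction is given for Hhip.

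The ratios of most members were higher in pair 1 than in pair 2. This held for 10 of the 13 probes and for 6 of the 7 above background in a channel on both arrays, where the median difference between the pairs was 0.41. Across all probes that median was 0.00. The exception among the 7 was the first Smo probe, at -0.04, and 88.5% of probes above background had pairs at least as far apart as that. Markers of the hair follicle and of melanocytes were higher in pair 1 too. All 10 hair shaft keratins on the list were higher in pair 1 than in pair 2, with ratios from 1.42 to 2.46 in pair 1 and from -0.54 to 0.18 in pair 2. All 5 genes of the hair matrix and placode, among them the transcription factors Dlx3, Msx2 and Lef1, did the same, with medians of 1.01 and -0.19, as did 7 of 8 inner root sheath genes, with medians of 1.61 and -0.39. The 4 genes of the outer root sheath and follicle stem cells had medians of 0.73 and -0.59, and the 5 melanocyte markers 0.59 and 0.00. Every gene of both lists was higher in pair 1 than in pair 2. Not all follicle genes rose in pair 1. Lgr5 of the stem cell list fell in both pairs, at -0.69 and -1.93 (adjusted p = 0.0212, limma). It was above background only in the control of pair 2. Gata3 of the inner root sheath list also fell in both, at -0.78 and -0.75 (adjusted p = 0.0232, limma). The summed level of the hair shaft keratins was 37989 in the control of pair 1 and 333560 in the control of pair 2, on the linear scale of brightness, whereas it was 182280 and 267620 in the SOX11-induced pups. At these keratins the pairs thus differed mainly in their controls, each of which was 1 pup. All the listed hair shaft genes were above background on both arrays. Of the 8 keratinocyte markers, 4 were higher in pair 1 than in pair 2. The basal ones, Krt14, Krt5, Krt15 and Trp63, had negative ratios in both pairs, with Krt15 at -1.08 and -0.98 (adjusted p = 0.00573, limma). The suprabasal ones, Krt1, Krt10, Lor and Ivl, had positive ratios in both. Of the 8, Krt15 alone passed the adjusted p. Ratios of the same sign in both pairs were found at 74% of probes above background. The part of follicle, melanocyte or other cell content in the members' values was not tested.

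**Figure D3:**
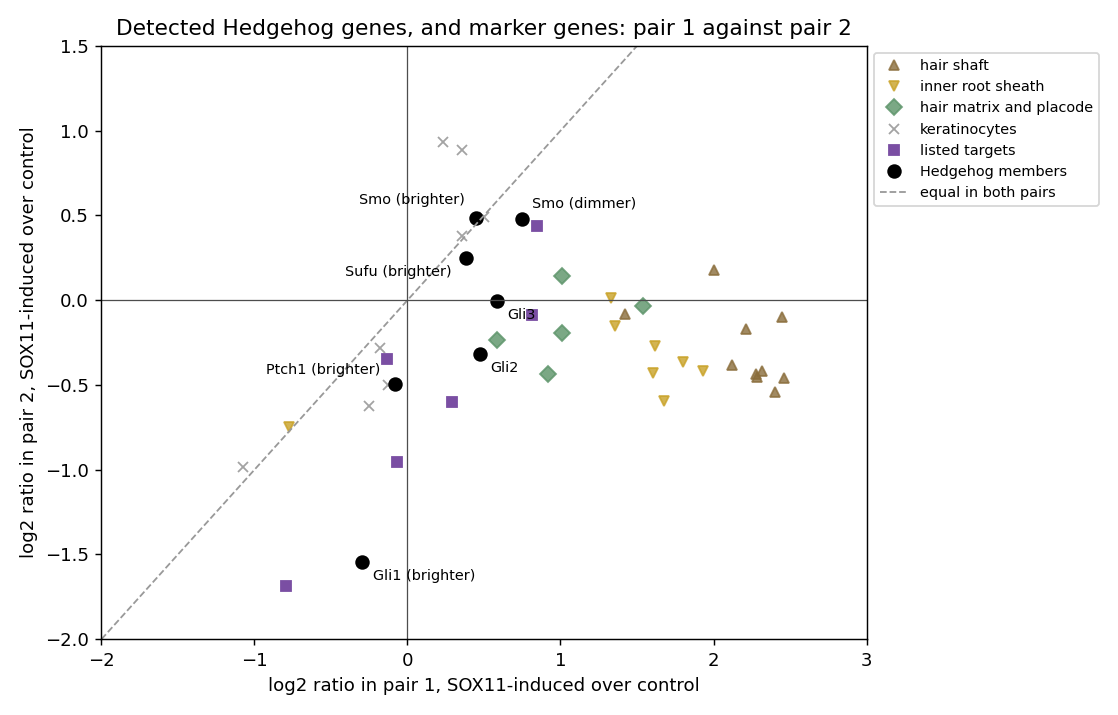
Log2 ratio of SOX11-induced over control in pair 1 (horizontal axis) against pair 2 (vertical axis) for the 7 Hedgehog probes above background in a channel on both arrays (black circles), the 6 listed Hedgehog targets that met the same mark (squares) and marker genes of the hair shaft, inner root sheath, hair matrix and keratinocytes. The dashed line marks equal ratios, and points below it were higher in pair 1, among them all 10 hair shaft keratins and 6 of the 7 Hedgehog probes.

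Beyond the 8 members, 36 further gene symbols of the pathway were listed. Of these, 35 were measured and 28 were above background in a channel on both arrays at their brightest probe. The remaining symbol, Foxf1a, was not found in the RefSeq gene table, while Foxf1 was listed too and was measured. Of the 35, 1 rose and 2 fell at an adjusted p under 0.05, and 0 were past a log2 ratio of 1.5. On the same basis 1225 of all 34820 gene names rose and 621 fell, and 214 met both the adjusted p and that ratio. A further 6 genes passed only at an unadjusted p under 0.05, 9 in all (25.7%, limma), compared with 22.6% of all gene names. The median of the mean log2 ratios was 0.02 over the list and 0.00 over all gene names.

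Scube2, a secreted protein that helps to release the lipid-modified ligand from cells, fell in both pairs. Its first probe read log2 levels of 10.15 and 9.81 in the controls and 8.68 and 8.69 in the SOX11-induced pups. The ratios were -1.47 and -1.13, a mean of -1.30 ± 0.24 (SD, n = 2 pairs), with an interval of -1.66 to -0.94 and an adjusted p of 0.0023 (limma). A second probe, also above background in every channel, differed much less, with ratios of -0.32 and -0.47 (mean -0.40, adjusted p = 0.176, limma). Under median centring its mean was 0.06, but that setting moved the median of probes above background from 0.04 to 0.51. With processed signals the first probe had a mean of -1.42 but an adjusted p of 0.245. The stretches measured are shown because the probes disagree in size.
Scube2, first probe, chr7:116942234-116942293, minus strand: tccacagcctctgcaatgccagtttaatcc
Scube2, second probe, chr7:116974314-116974373, minus strand: tcacctgtggctcttcctctctcagaagca
Of the other ligand genes, Ihh and Dhh were not above background, with means of 0.02 and 0.29. Disp1, which exports the ligand, had ratios of -0.34 and 0.27.

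Stk36, a serine/threonine kinase also known as Fused, rose in both pairs by nearly the same amount. Its first probe read 5.94 and 6.05 in the controls and 6.94 and 7.06 in the SOX11-induced pups. The ratios were 1.00 and 1.01, a mean of 1.00 ± 0.0063 (SD, n = 2 pairs, interval 0.67 to 1.34, adjusted p = 0.00638, limma). The second probe, above background only in the SOX11 channel of pair 2, had ratios of 0.66 and 0.66 (adjusted p = 0.0399, limma), and its adjusted p was 0.0955 with median spot brightness, 0.0933 in the authors' table and 0.244 with processed signals. With processed signals the first probe did not pass either, at a mean of 1.55 and an adjusted p of 0.244. Both stretches are shown as the measurement of the gene of the list that rose.
Stk36, first probe, chr1:74682558-74682617, plus strand: aactcccctccaagtgagaaactagaagag
Stk36, second probe, chr1:74652033-74652092, plus strand: acatgaaaccgcagaacattcttctcgcca
Kif7, a cilium tip kinesin that regulates GLI proteins, had ratios of 0.61 and 0.25 (mean 0.43, adjusted p = 0.167, limma).

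In contrast, the receptors and co-receptors showed no change that passed the test. Means at the brightest probe ranged from -0.16 to 0.07 over the 5 genes of this group, and in all of them the pairs had opposite signs. Boc, a ligand-binding co-receptor, had ratios of 0.19 and -0.15. For Cdon, a related co-receptor, these were -0.37 and 0.05, and for Gas1, a membrane-anchored co-receptor, -0.05 and 0.18. The other probes of Cdon and Gas1 that were above background had lower means, of -0.55 for Cdon (adjusted p = 0.0769, limma) and of -0.69 for Gas1 (adjusted p = 0.0512). None of the 5 genes of the primary cilium, the organelle through which the signal passes, passed either.

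Among the listed transcriptional targets, 1 of 8 measured genes fell and none rose by the adjusted p. This was Ccnd1, which encodes the cell cycle regulator cyclin D1 and has many inputs besides Hedgehog signalling. Its log2 levels were 10.05 and 10.35 in the controls and 9.25 and 8.67 in the SOX11-induced pups. The ratios were -0.80 and -1.68, with a mean of -1.24 ± 0.63 (SD, n = 2 pairs, interval -1.71 to -0.77, adjusted p = 0.0117, limma). With processed signals the mean was -1.34 and the adjusted p 0.291. All 8 targets had higher ratios in pair 1 than in pair 2, with medians of 0.15 and -0.40, as was seen for most of the members and for the hair follicle and melanocyte markers. The other groups of the list were mixed. Pair 1 was higher at 8 of 11 transduction genes, but at 1 of 6 ligand, 2 of 5 receptor and 1 of 5 cilium genes. Over the whole list this held for 20 of 35 genes, against 17180 of all 34820 gene names.

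**Figure D4:**
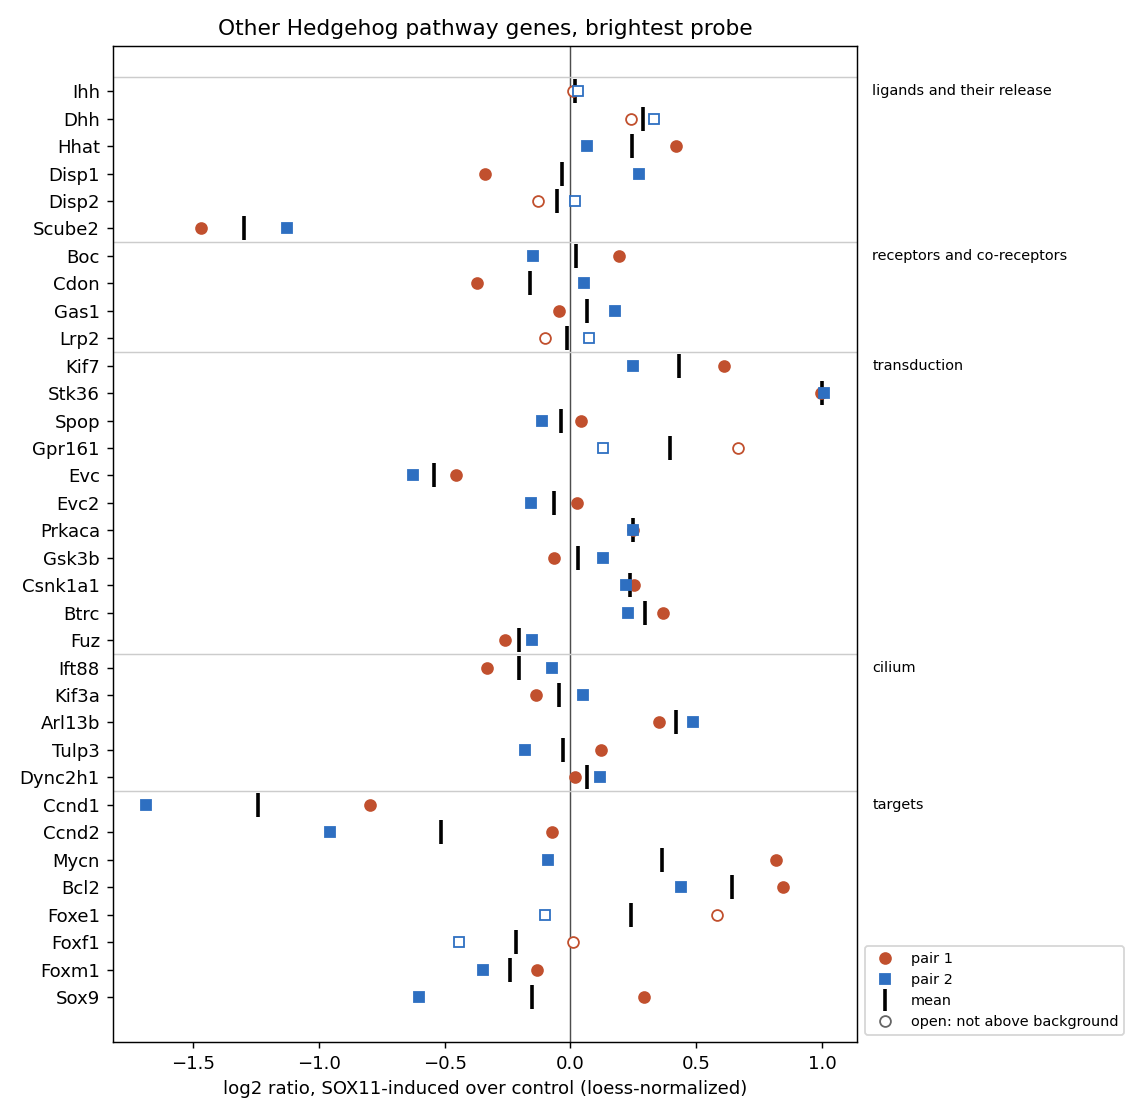
Log2 ratio of SOX11-induced over control (horizontal axis) at the brightest probe of other measured pathway genes, grouped by role, in pair 1 (circles) and pair 2 (squares), with their mean (vertical bar). Open symbols are probes not above background in a channel on both arrays. Scube2 and Ccnd1 lie farthest to the left and Stk36 farthest to the right, and all 8 targets have their pair 1 value to the right of their pair 2 value.

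Likeness to a member was measured as the Euclidean distance between log2 ratios over both arrays, among 13080 other genes. Nearest to Shh were Eri2, Mpdz and Nkrf, at distances of 0.011 to 0.018, and 189 genes lay within 0.1. Nearest to Ptch1 were Sulf2, Gm9992 and Ccdc68, at 0.016 to 0.019, and 84 genes lay within 0.1. With 2 arrays, such likeness is easily met and is a description only.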

How the data were processed

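Epidermal RNA of 2 littermate pairs was hybridised to 2-colour Agilent mouse arrays, 1 pair per array. The intensity values that the authors deposited are the brightness and local background of each spot in each channel, per the file headers from Agilent Feature Extraction 10.7.3.1 with mm9 positions, not normalized. Processed signals in these files are intensity values that the software, per the file headers, had corrected for background and dye. The authors' deposited table of log2 ratios served as an alternative. Rebuilding it from the median spot brightness left differences of at most 0.14 over 55676 probes, its medians were 0.0098 and 0.0047, and its direction was that of Cy5 over Cy3. The methods also describe a colour swap, which the labels do not show, and a ComBat step.

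Mean spot brightness and median background were corrected in R 4.3.3 with limma 3.58.1 by normexp with an offset of 16 and centred by loess, in which control spots had weight 0. Outlier spots (194 and 186) were left out, spots of a probe were averaged, and a linear model with an intercept was fitted to the 2 ratios of each probe with eBayes. Levels per pup were scaled by Aquantile. A probe was above background in a channel where at least 0.5 of its spots were so marked. With 2 arrays the smallest p of an exact sign-flip test is 0.5, and p-values therefore rest on the prior, which had 8.34 degrees of freedom and an SD of 0.22. The fit was tested on simulated data. There the prior's degrees of freedom were often estimated too high, since each probe gives a single residual degree of freedom, and adjusted p-values were then too small. The number of arrays limits the precision.

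The members, the list of other pathway genes and the marker lists were chosen with earlier results of these data known. Named in the text were all member probes, other pathway genes past the adjusted p, Ihh, Dhh, Boc, Cdon, Gas1, Disp1 and Kif7, brightest genes of marker lists or those below background (other marker genes were named after their values were seen), and the 3 genes nearest to Shh and Ptch1. A listed gene is not reported here by name. Alternatives were an offset of 50, processed signals, median centring, a filter on dim probes, median spot brightness, the authors' table, other thresholds and each array alone.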

Additional observations from a re-analysis of the deposited data

How the results depend on the processing

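No Hedgehog member probe was called under an offset of 50, processed signals, median centring, a filter on dim probes, median spot brightness or the authors' table. With each array alone, for which no test exists, 0 to 1 member probes and 273 to 553 of all probes were past a log2 ratio of 1.5, the member being Gli1 on array 2, and the members' median lay between -0.04 and 0.19. The 252 calls over all probes became 0 with processed signals, 756 with median centring and 2446 with a linear 1.5-fold threshold or with the adjusted p alone. Calls were 81% higher in SOX11-induced epidermis, against 98.7% under median centring, which moved the median of probes above background from 0.04 to 0.51. The 3 other pathway genes past the adjusted p became 6 with an offset of 50, 0 with processed signals, where their means were larger in size, and 17 with median centring. The members' median of 0.08 became 0.29 without dim probes. Member probes past the adjusted p numbered 2 with an offset of 50 (both of Smo), 6 under median centring, 0 with processed signals and 1 under each other alternative, the second Smo probe without dim probes and the second Gli1 probe otherwise. The share of all probes past the adjusted p was not counted under these alternatives. These numbers of members and of other pathway genes therefore cannot be set against it. Under median centring the first Ptch1 probe reversed to 0.059, or -0.41 relative to the shift of probes above background. The cause of these changes was not tested. The fit on ratios within littermate pairs is itself the paired analysis, and none without the pairing was made. Signal over background limits Shh, Hhip, Gli2 and Sufu.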
